A study of Rattus norvegicus with 18 samples.

Results

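Adult rats were compared with young rats at the same times after femoral fracture, across all genes measured on the arrays. The 10 arrays compared, of 18 in the whole series, were the 5 adult and the 5 young arrays of 3 days and of 1, 2, 4, and 6 weeks after the fracture, chosen by their labels and paired by time. The rats were intact female Sprague-Dawley rats, 26 weeks old (adult) or 6 weeks old (young) at fracture. Every fractured femur carried a steel rod in its marrow cavity, and the fracture was closed and at the middle of the shaft. The no fracture arrays, 1 for each age, held RNA from sham controls. The remaining 5 fracture arrays came from older rats, 52 weeks old at fracture, and in the full fits served only to estimate the spread. In fits with 1 adult or young array left out, they could also change the size of the adult minus young difference. Each array held RNA pooled from 2 rats, taken from the third of the femur around the fracture, which contained callus, cortical bone, and marrow. With 1 array for each age and time, the 5 times were the replicates of an age, so the error holds the changes of the age difference over time as well as the spread between rats.

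A closed fracture heals by a sequence of inflammation, growth of cartilage and woven bone, replacement of the cartilage by bone, and remodeling by osteoclasts. Cartilage cells first lay down type II collagen and, once enlarged, type X collagen, and this matrix is then removed as bone replaces it. Neutrophils, red cell precursors, and osteoclasts all come from the marrow, which is opened by the fracture and the rod. In rats as in humans, healing is slower in adults than in the young.

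Signals are scaled intensities in arbitrary units, and signals below 100 were set to 100 before log2. The arrays carried 8799 probe sets, and 4669 passed a minimum signal and entered the tests. The bone genes measured were strong on all 10 arrays. Col1a1, a chain of type I collagen, had signals of 18674 to 42694 in adult rats and 22202 to 34116 in young rats. Bglap, osteocalcin, had 5207 to 20276 in adult rats and 7422 to 19608 in young rats. Muscle RNA was present at both ages, and Ckm, muscle creatine kinase, had 10133 to 49236 in adult rats and 15156 to 42265 in young rats. Probe sets at the 5' and 3' ends of Gapdh are a check of how intact the RNA was. Their ratio stood at 0.650 to 0.857 on the 5 adult arrays and 0.731 to 0.802 on 4 young arrays, with 0.257 on the array of young rats at 6 weeks. The same ratio for actin did not set that array apart, with 0.446 against 0.461 to 0.527 on the other 4 young arrays. By actin the lowest of the 10 arrays was that of adult rats at 1 week, with 0.372. In RNA of whole tissue, fewer cells of a type and less RNA per cell cannot be told apart.

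Over the 5 times no gene differed between adult and young rats by the adjusted threshold. The counts were 0 of 4669 probe sets higher in adult rats (0.0%) and 0 lower (0.0%), and the lowest adjusted p by limma was 0.0664, for Defa5. At an unadjusted p below 0.05, 217 probe sets were higher (4.65%) and 401 lower (8.59%) in adult rats. With the older rats left out of the limma fit, Scd was called higher (adjusted p = 0.0268). That fit called Defa5 (adjusted p = 0.0268), S100a9, and Lypd8l1 (adjusted p = 0.042 each) lower. Calls below are from the fit with the older rats unless another is named. The methods' two-sample test, run on the 5 adult and 5 young signals without log2, called 0 in either direction after adjustment, with 91 higher and 113 lower before it. That test does not use the pairing by time, so changes over time are part of its error. The median 95% interval reached 0.43 to either side on the log2 scale, or 1.34-fold. When known changes were put into simulated data of the same size, the test recovered 69% of those of log2 1 and 96% of those of log2 2. In that simulation 100 genes were changed at each size, by the same amount at all times. The adjusted threshold was thus easier to reach than in the data, where Defa5 with a difference of -2.22 did not pass. The shares therefore do not show that such differences are absent. Leaving out the young 6 weeks array gave 221 probe sets higher and 390 lower at the unadjusted threshold.

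The gaps between the ages varied in size over time. At 3 days the adult signal was 2-fold or more higher for 62 probe sets (1.33%) and lower for 105 (2.25%). At 1 week the counts were 98 higher (2.1%) and 209 lower (4.48%), and at 2 weeks 224 higher (4.8%) and 345 lower (7.39%). At 4 weeks they were 210 higher (4.5%) and 156 lower (3.34%), and at 6 weeks 256 higher (5.48%) and 287 lower (6.15%). The sham controls without fracture already differed by as much, with 176 higher (3.77%) and 404 lower (8.65%). The 2 ages were thus closest at 3 days, and at every time but 4 weeks more probe sets were lower than higher in adult rats. Each of these counts rests on 1 array against 1 and has no replicate check.

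**Figure D1:**
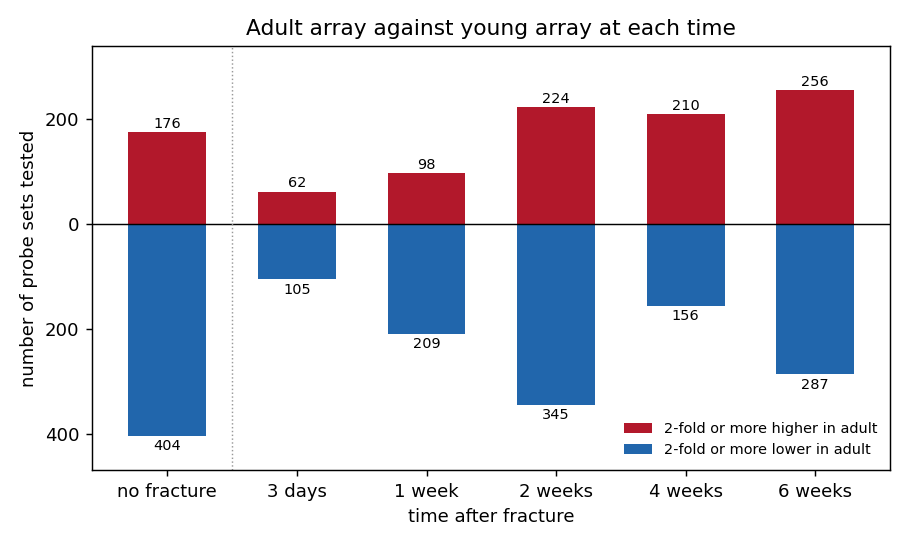
Number of probe sets, of 4669 tested, whose signal was 2-fold or more higher (bars up) or lower (bars down) on the adult array than on the young array, with no fracture and at each time after fracture. The bars are shortest at 3 days, with 62 up and 105 down.

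The differences at 3 days bore little relation to those at later times. Over the 4669 probe sets, the adult minus young differences at 3 days had Pearson correlations of -0.07 to 0.02 with those at the other 4 times. The differences at 2 and 4 weeks were the most alike after fracture, with a correlation of 0.48 (Spearman 0.48), and those at 2 weeks and without fracture had 0.46 (Spearman 0.51). These are descriptions across probe sets, which are not independent replicates, and the arrays compared share no sample. The adult signal was higher at all 5 times for 185 probe sets (3.96%) and lower at all 5 for 244 (5.23%). Every adult signal lay above every young signal for 11 probe sets (0.236%) and below for 15 (0.321%).

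Among the named genes, those with the largest negative differences were defensins and other neutrophil genes. Neutrophils are short-lived white cells made in the marrow, and their granules hold antimicrobial peptides. The leading gene, Defa5, encodes a defensin, an antimicrobial peptide. It had signals of 120.3, 163, 32.4, 695, and 1902 at the 5 times in adult rats, against 1302, 469, 612, 2997, and 5014 in young rats. The adult signal was the lower one at every time, but the ranges of the ages overlapped, since both ages regained signal at 4 and 6 weeks. The difference was -2.22 ± 0.38 on the log2 scale (SE, n = 5 arrays each), a fold change of 4.65 lower in adult rats with signals under 100 set to 100, and did not pass (adjusted p = 0.0664). Without fracture the signals were 4155 in the adult array and 5767 in the young array, a smaller gap.

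S100a9, a subunit of the calcium-binding protein calprotectin of neutrophils, followed the same course. Its signals were 361, 302, 134, 1533, and 5445 in adult rats, against 2573, 548, 1283, 7638, and 14747 in young rats (log2 -2.14 ± 0.50, adjusted p = 0.139). Its partner S100a8 had 254, 246, 159, 1442, and 7980.5 in adult rats, against 3403, 284, 1938, 8455, and 14902 in young rats (log2 -2.20 ± 0.63, adjusted p = 0.188). For both subunits the adult signals at 3 days, 1 week, and 2 weeks were the 3 lowest of the 10 arrays, but at 1 week the S100a8 signals of the ages nearly met. RatNP-3b, a rat neutrophil defensin, had 376, 1449, 230.3, 4838, and 14282 in adult rats, against 7296, 2540.4, 3385, 10483, and 24471 in young rats (log2 -2.17 ± 0.52, adjusted p = 0.153). Defensins are a multigene family, so that a probe set may bind the RNA of several members. Without the young 1 week array, Defa5 (log2 -2.56, adjusted p = 0.0141) and S100a9 (log2 -2.72, adjusted p = 0.0167) passed the test. In that fit the older rats also affected the size of the differences. With the older rats left out of the fit, Defa5 (adjusted p = 0.0268) and S100a9 (adjusted p = 0.042) also passed.

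Of the 24 genes of the neutrophil list, 7 were tested, and Mpo, the peroxidase of neutrophil granules, was not among them. None passed the adjusted test, 6 were lower in adult rats and 0 higher at an unadjusted p below 0.05, and 5 were lower at all 5 times. Over all probe sets tested, 8.59% were lower and 4.65% higher at that threshold, and 5.23% were lower at all 5 times. The median difference was -2.14 on the log2 scale, against -0.02 over all probe sets tested. By time the median of the list was -2.83 at 3 days, -0.21 at 1 week, -2.61 at 2 weeks, -1.47 at 4 weeks, and -0.88 at 6 weeks, and it was -0.48 without fracture. Lcn2, the iron-withholding lipocalin of neutrophil granules, had a difference of -0.86 ± 0.29, and Lyz2, lysozyme of neutrophils and macrophages, -0.47 ± 0.17. Mmp8, the neutrophil collagenase, was below the floor of 100 on 4 of 5 adult arrays and had -0.42 ± 0.22. The summed signal of the 7 genes was 4244 to 37301 in adult rats and 9709.5 to 72731 in young rats. The members other than Defa5, RatNP-3b, S100a9, and Lyz2 were named after their values were seen.

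**Figure D2:**
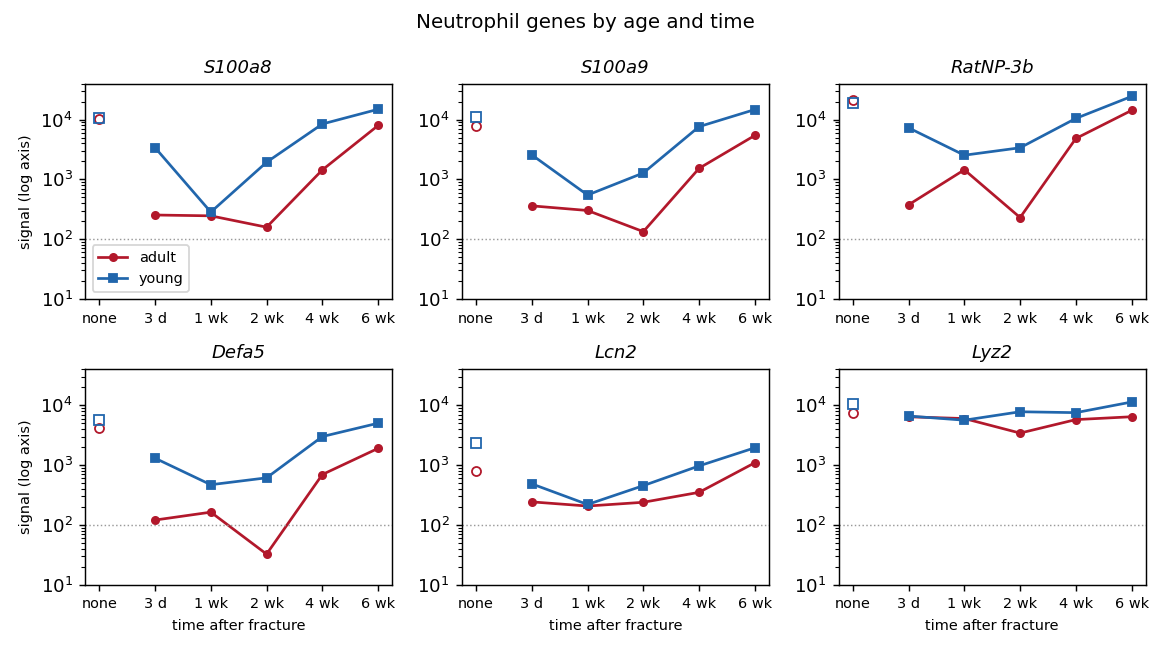
Signal (log axis, arbitrary units) of 6 neutrophil genes by time after fracture in adult rats (red circles) and young rats (blue squares), 1 array for each point, with no fracture as open symbols at the left and the floor of 100 as a dotted line. The adult S100a8, S100a9, RatNP-3b, and Defa5 signals lie below the young signals at all 5 times, and for each of these 4 genes the gap is narrower at 1 week than at 3 days or 2 weeks.

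Promoters of this list were read, after the values were seen, because most of its members had differences of the same sign. The plan had kept promoters for lists with several members that passed, a condition this list did not meet. The RefSeq table for the GRCr8 assembly held promoters of 5 of the 7 tested members. RatNP-3b (chr16:77248928-77249227, minus strand) and S100a9 (chr2:178490573-178490872, minus strand) are shown 5' to 3', from 250 bases before the start of the gene to 50 after it, as 300 bases each. Capitals mark the letters TTGCNNAA, a core bound by C/EBP factors, TATAAA, the TATA box, and GAGGAA, a core bound by PU.1, each searched on both strands.
RatNP-3b: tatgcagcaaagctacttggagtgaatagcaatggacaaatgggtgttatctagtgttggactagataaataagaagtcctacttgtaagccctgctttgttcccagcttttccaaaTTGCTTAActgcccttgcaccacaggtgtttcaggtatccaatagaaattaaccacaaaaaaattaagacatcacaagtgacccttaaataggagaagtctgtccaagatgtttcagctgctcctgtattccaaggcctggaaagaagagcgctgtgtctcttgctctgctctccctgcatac
S100a9: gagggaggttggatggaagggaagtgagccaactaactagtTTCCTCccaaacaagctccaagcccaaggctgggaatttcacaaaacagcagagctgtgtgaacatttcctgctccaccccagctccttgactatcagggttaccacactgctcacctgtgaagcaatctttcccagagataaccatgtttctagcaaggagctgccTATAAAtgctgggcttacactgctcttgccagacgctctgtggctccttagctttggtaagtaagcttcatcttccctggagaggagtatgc
The RatNP-3b window held 1 C/EBP core and neither of the other motifs, and the S100a9 window held 1 TATA box and 1 PU.1 core. Over the 5 promoters, 4 held the C/EBP core, against 10.6% of 33469 promoters of the same length. The TATA box was in 2 of the 5, against 14.2% of all, and the PU.1 core in 3 of the 5, against 27.6% of all. A match describes the letters in the window and shows no binding. No test of enrichment was run, and these 5 promoters belong to a list picked by its values.

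Red cell genes also had negative differences, the largest of them at 2 weeks. Of 33 genes listed, 10 were tested, none passed, 5 were lower (8.59% of all probe sets) and 0 higher (4.65% of all) at an unadjusted p below 0.05, and the median difference was -0.74. Tfrc, the transferrin receptor that brings iron into red cell precursors, had signals of 109, 88.5, 126, 541, and 154 in adult rats, against 196, 479, 653, 641, and 390.5 in young rats (log2 -1.41 ± 0.30, adjusted p = 0.105). Hbb, a beta globin, had 4575, 6830.3, 6765, 31118, and 37472 in adult rats, against 10225, 11694, 25991, 25125, and 46547 in young rats (log2 -0.78 ± 0.27, adjusted p = 0.252). The adult globin signal was still low at 2 weeks, when the young signal was already at its 4 weeks level. The list median was -2.16 at 2 weeks and -0.04 at 4 weeks. The summed signal of the list was 8704 to 81692 in adult rats and 19443 to 108346 in young rats. The neutrophil and the red cell list both had their 3 lowest sums at 3 days, 1 week, and 2 weeks, in adult, young, and older rats alike. Tfrc was named after its values were seen. The part of marrow content in these differences was not tested.

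Other named genes with a lower adult signal at all 5 times are known from blood cells or macrophages. Slc40a1, ferroportin, the iron exporter of macrophages and other cells, had 269, 341, 359, 573, and 377 in adult rats, against 422, 724, 954, 896, and 946 in young rats (log2 -1.02 ± 0.21, adjusted p = 0.105). A second probe set of the gene had -0.77. Ptpn6, a phosphatase of blood cells, had a difference of -0.73 ± 0.16 (adjusted p = 0.108), and Syk, a kinase of immune receptors, -0.73 ± 0.18 (adjusted p = 0.154). Srgn, the core protein of granule proteoglycans, had -1.01 ± 0.26 (adjusted p = 0.180). Without fracture, 1 array against 1, the differences were already -0.98 for Slc40a1, -0.77 for Ptpn6, -1.09 for Syk, and -0.68 for Srgn. Of 8 tested mast cell and basophil genes, 4 were lower and 0 higher at an unadjusted p below 0.05, against 8.59% and 4.65% of all probe sets, with a median of -0.58. Cma1, mast cell chymase, had 138, 352, 391, 2199, and 1877 in adult rats, against 221, 368, 1919, 3732, and 2113 in young rats. Its signal was high by 2 weeks in young rats and by 4 weeks in adult rats. Mast cell proteases are a family of near-identical genes, which their probe sets may not separate.

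RoBo-1, listed as Lypd8l1, is a surface protein of the Ly-6 family first described in rat bone and growth plate. It had 219.5, 337, 217, 690.1, and 1787 in adult rats, against 978, 472, 724, 2252, and 6957 in young rats (log2 -1.61 ± 0.31, adjusted p = 0.105). The signal was lower in adult rats at all 5 times, with the narrowest gap at 1 week, and without fracture the arrays had 5418 in adult and 6363 in young. Without the young 1 week array it passed (log2 -1.96, adjusted p = 0.0112). With the older rats left out of the fit it also passed (adjusted p = 0.042). In older rats the signal was 293, 509, 317, 452, and 1047, near the adult values. Besides Car2, described with the early times, the remaining named genes with a lower adult signal at all 5 times were Furin, a protease that activates secreted precursors (-0.63 ± 0.13, adjusted p = 0.105), Pnrc2, a factor of mRNA decay (-0.71 ± 0.17), and Tmpo, a protein of the inner nuclear membrane (-0.71 ± 0.17). Without fracture the differences of Furin, Pnrc2, and Tmpo were -0.52, -1.43, and -1.04.

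Of the 12 named genes with a higher adult signal at all 5 times, Scd had the largest mean difference. Scd, stearoyl-CoA desaturase, makes monounsaturated fatty acids. Its signals were 708, 1733, 894, 4626, and 1369 in adult rats, against 345, 689.6, 405, 1629, and 638 in young rats, and the pair without fracture had 459 in adult and 178 in young. The difference was between 1.04 and 1.51 on the log2 scale at all 5 times, so that Scd had a nearly constant gap on top of a shared peak at 4 weeks (log2 1.22 ± 0.27, fold change 2.33, adjusted p = 0.108). Without the 6 weeks arrays it passed (log2 1.25, adjusted p = 0.0423). With the older rats left out of the fit it also passed (adjusted p = 0.0268). Of the 19 adipocyte genes tested, 4 were higher and 1 lower at an unadjusted p below 0.05, against 4.65% and 8.59% of all probe sets, with a median of 0.01. Lep, leptin, and Acly, ATP citrate lyase, the brightest members of that list, had differences of 0.02 and -0.09.

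Rrad, a small GTPase known from skeletal muscle, had 3903, 2873, 1811, 867, and 1189 in adult rats, against 1779, 1462, 373, 573, and 601 in young rats (log2 1.19 ± 0.24, adjusted p = 0.105). Without fracture Rrad had 1163 in adult and 332 in young, a log2 difference of 1.81. Pmepa1, a target and inhibitor of TGF-beta signaling, had 10370.4, 14959, 11863, 6169, and 6784 in adult rats, against 8371, 9349.9, 6301, 3307, and 3081 in young rats (log2 0.79 ± 0.15, adjusted p = 0.105). For Pmepa1 the gap widened over the later times, with differences of 0.31 at 3 days and 1.14 at 6 weeks, and without fracture the adult signal was the lower one (2548 in adult, 3106 in young). Of 22 TGF-beta and BMP signaling genes tested, 4 were higher and 1 lower at an unadjusted p below 0.05, against 4.65% and 8.59% of all probe sets, with a median of 0.17.

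The other 9 genes with a higher signal in adult rats at all 5 times had mean differences of 0.46 to 0.74 on the log2 scale and adjusted p of 0.153 to 0.219. They were Copz2 of the vesicle coat, the small heat shock protein Hspb1, the laminin receptor Itga7 of muscle, the amine oxidase Maoa, the caveolar protein Cavin3, the extracellular superoxide dismutase Sod3, the reductase Cyb5r3, the proteasome subunit Psmd1, and the nuclear lamin Lmna. Without fracture the differences of Itga7, Maoa, and Hspb1 were 1.04, 0.73, and 0.70, and those of the rest lay between -0.25 and 0.37. Sod3 had 666, 682, 1200.1, 967, and 1048 in adult rats, against 539, 672, 610.2, 642, and 534 in young rats. The adult and young signals were thus alike at 1 week and apart at 2 and 6 weeks. Among 38 antioxidant genes, 6 were higher and 1 lower at an unadjusted p below 0.05, against 4.65% and 8.59% of all probe sets, with a median of 0.05. For Psmd1 the other probe sets of the gene gave 0.17 and -0.15, so its value rests on 1 of 3 probe sets.

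**Figure D3:**
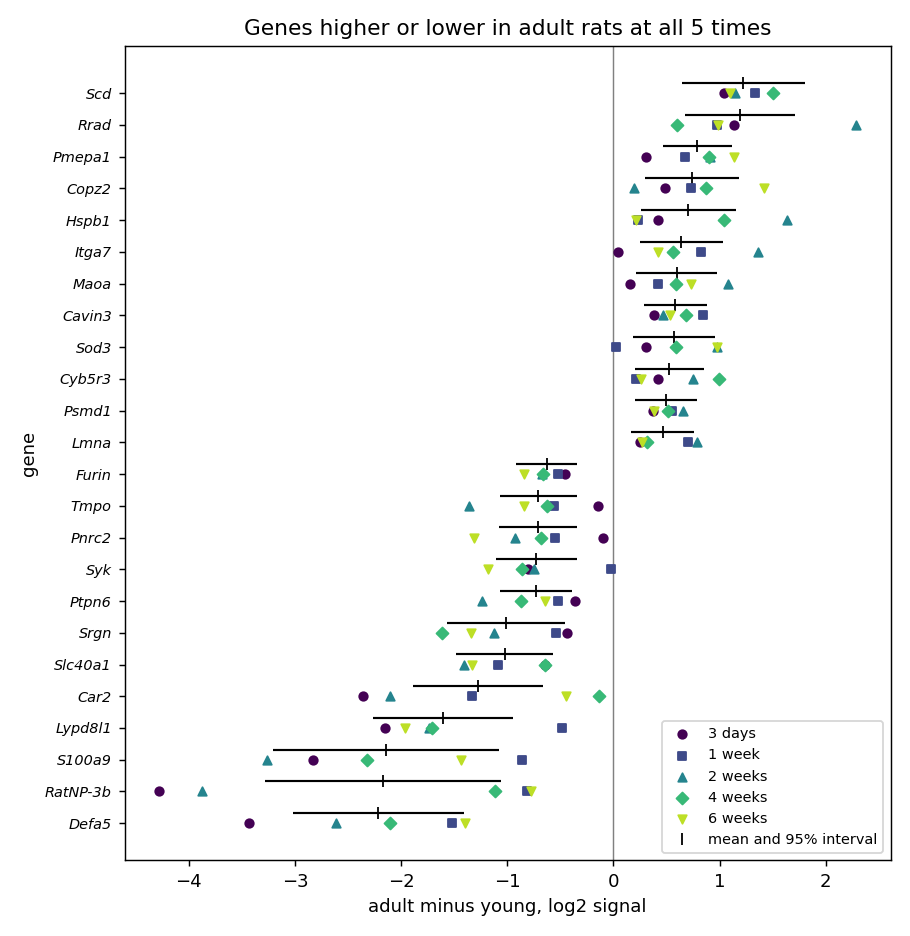
Adult minus young difference in log2 signal at each of the 5 times (coloured symbols) for the 12 genes with the lowest p among those higher at all times and the 12 among those lower at all times, with the mean difference and its 95% interval (black). None of the 24 genes passed the adjusted test in the fit with the older rats. Defa5, RatNP-3b, and S100a9 at the bottom lie farthest from 0, with Defa5 at -2.22.

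At 4 and 6 weeks the question was whether adult rats still differed from young rats late in healing. RNA of type II collagen, the main collagen of cartilage, was higher in adult rats at these times. Its gene, Col2a1, had signals of 6688 and 2111 at 4 and 6 weeks in adult rats, against 629 and 106 in young rats. It was up-regulated in adult rats by 14.5-fold at these times (log2 3.86 ± 0.48, n = 2 arrays each, adjusted p = 0.0169). At the earlier times the ages were close, with 952, 7034, and 11010.4 in adult rats and 689, 6591, and 14462 in young rats at 3 days, 1 week, and 2 weeks. Col2a1 therefore peaked at 2 weeks at both ages, and the ages separated afterward. In older rats its signals were 7059 at 4 weeks and 4869.7 at 6 weeks. Without fracture the order was the other way round, with 47.8 in the adult array and 616 in the young array.

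The Col2a1 call depended on single arrays and on the filter, since without the filter on low signals the adjusted p was 0.111. Without the young 6 weeks array, the one with the low Gapdh ratio, the difference was 3.13 and the adjusted p 0.476. At 4 weeks alone, 1 array against 1, the adult signal was 6688 and the young signal 629, a log2 difference of 3.41. The part of RNA quality in these differences was not tested. Without the adult 4 weeks array or the adult 6 weeks array the adjusted p was 0.205 and 0.232, each with a log2 difference of 3.80 or more. Without the adult 1 week array it was 0.052. In the fits without 1 of the adult or young arrays of 4 or 6 weeks, the older rats also affected the size of the difference. The test of whether the late difference departed from the early one gave 3.81 ± 0.62 with an adjusted p of 0.234.

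Other cartilage genes had values on the same side. Of 23 listed, 7 were tested, and at 4 and 6 weeks Col2a1 was the 1 member that passed, while 4 were higher and 1 lower at an unadjusted p below 0.05. That is to be read against 222 probe sets higher (4.75%) and 305 lower (6.53%) at the same threshold and times. Col10a1, the collagen of enlarged cartilage cells, had 912 and 281 in adult rats at 4 and 6 weeks, against 55.1 and 46.2 in young rats (log2 2.34 ± 0.38), and did not pass (adjusted p = 0.05 after rounding). Acan, the large cartilage proteoglycan, had 560.2 and 199.6 in adult rats, against 215 and 37.1 in young rats (log2 1.19 ± 0.39, adjusted p = 0.265). Comp, a cartilage matrix protein also made in tendon, had 451 and 306 in adult rats, against 149.6 and 140.3 in young rats (log2 1.36 ± 0.34, adjusted p = 0.163). The list median was 1.19 over these times, against 0.01 for all probe sets. Col11a1, a minor fibril collagen made by bone and cartilage cells, was the member on the other side, with a difference of -0.79. The members other than Col2a1 were named after their values were seen.

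In all, 2 probe sets were higher (0.0428%) and 1 lower (0.0214%) in adult rats at 4 and 6 weeks. The probe sets other than that of Col2a1 did not meet the rule for naming and were read after their values were seen. Grhpr, a glyoxylate reductase, had a mean of 464 in adult rats and 104 in young rats (log2 2.09 ± 0.31, adjusted p = 0.0370). A probe set of Myl12b, a myosin light chain, had means of 392 in adult rats and 1106 in young rats (log2 -1.50 ± 0.23, adjusted p = 0.0370), whereas the brighter probe set of the same gene had -0.38 and did not pass. Both calls were lost when any 1 of the 4 adult and young arrays of these times was left out, and also without the array of young rats at 3 days, that of either age at 1 week, or that of older rats at 1, 2, 4, or 6 weeks, and with only the young and adult arrays in the fit.

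Over 3 days, 1 week, and 2 weeks, 0 probe sets were higher (0.0%) and 1 was lower (0.0214%) in adult rats. The 1 gene was Car2, carbonic anhydrase 2, which supplies acid for bone resorption in osteoclasts and is also abundant in red cells. Its signals were 184, 796, and 1113 in adult rats at these times, against 943, 2007, and 4788 in young rats. Car2 was down-regulated in adult rats by 3.81-fold (log2 -1.93 ± 0.23, n = 3 arrays each, adjusted p = 0.0125), and a dimmer second probe set had -1.50. Without fracture the adult array was also lower, with 4461 against 7391 in young (log2 -0.73). The second probe set had -1.42 without fracture, close to its early difference. At 4 and 6 weeks the ages came together, with 4106 and 4027 in adult rats and 4505 and 5506 in young rats. Leaving out the young 2 weeks, the adult 3 days, or the adult 2 weeks array raised the adjusted p to 0.0907, 0.0853, and 0.162. The call was also lost without the filter on low signals (adjusted p = 0.326) and without the 6 weeks arrays. The late minus early difference of Car2 was 1.64 ± 0.37 with an adjusted p of 0.371.

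The osteoclast list had a negative median at the early times and a positive one at the late times. Osteoclasts resorb calcified cartilage and bone. Of 17 genes listed, 6 were tested, and their median difference was -2.02 at 3 days, -0.98 at 1 week, -0.53 at 2 weeks, 0.25 at 4 weeks, and 0.97 at 6 weeks. Mmp9, a gelatinase of osteoclasts and neutrophils, had 130.3, 2492, 5206, 3347, and 3124 in adult rats, against 1888, 6087, 8208, 1468, and 1168 in young rats. Acp5, tartrate-resistant acid phosphatase, had 479.5, 4594, 9941, 9065, and 9045 in adult rats, against 2343, 8414, 11167, 6703, and 4010.1 in young rats. The adult signals of both genes started lower and ended higher than the young signals. Neither late minus early difference passed (Mmp9 3.24 ± 0.84, adjusted p = 0.448, Acp5 1.91 ± 0.68, adjusted p = 0.865). Over all 5 times the list median was -0.52, and it was 0.04 without the 3 days arrays. Mmp9 and Acp5 were chosen after their values were seen. For the late minus early difference, 0 of 4669 probe sets passed in either direction (0.0% each), with 140 higher and 83 lower at an unadjusted p below 0.05. In simulated data that test recovered 3% of changes of log2 1 and 57% of those of log2 2.

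**Figure D4:**
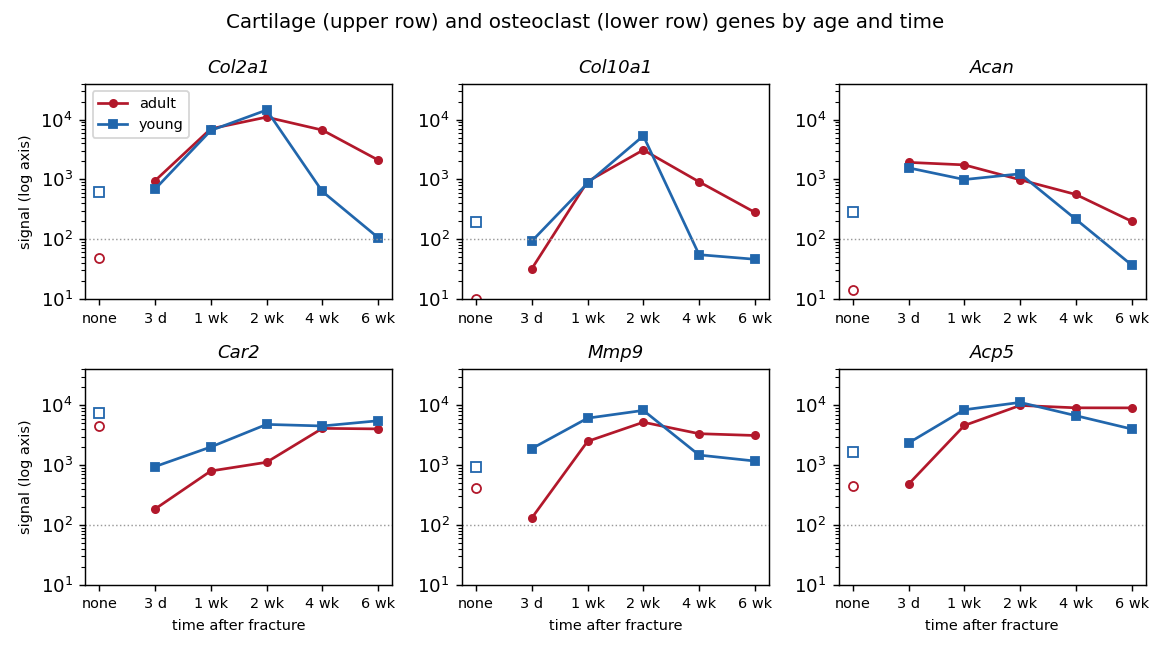
Signal (log axis, arbitrary units) of 3 cartilage genes (upper row) and 3 osteoclast genes (lower row) by time after fracture in adult rats (red circles) and young rats (blue squares), 1 array for each point, with no fracture as open symbols (the adult Col10a1 signal of 7.6 is drawn at the lower edge). At 4 and 6 weeks the adult Col2a1 signals of 6688 and 2111 lie above the young signals of 629 and 106, and the Mmp9 and Acp5 lines cross between 2 and 4 weeks.

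Bone matrix genes had values on both sides. Of 11 osteoblast and bone matrix genes tested, none passed, 1 was higher and 2 lower at an unadjusted p below 0.05, against 4.65% and 8.59% of all probe sets, and the median was 0.12. Alpl, alkaline phosphatase of mineralizing cells, had a difference of 0.45 ± 0.15, and Bglap -0.44 ± 0.25. Spp1, osteopontin, was lower in adult rats at all 5 times, with 5887 to 8597 in adult rats and 8062 to 15134 in young rats (log2 -0.57 ± 0.17, adjusted p = 0.212), and was named after its values were seen. Of 29 fibrous matrix genes, 3 were higher and 2 lower, with a median of 0.22. The brightest of them, Col1a1 and Col1a2, had differences of 0.22 and 0.10.

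The proliferation list had a positive median at 3 days and a negative one from 2 weeks on. The median of 36 tested genes was 0.39 at 3 days, 0.00 at 1 week, -0.82 at 2 weeks, -0.28 at 4 weeks, and -0.55 at 6 weeks, and it was -0.83 without fracture. Over all times 0 of the 36 were higher and 9 lower in adult rats at an unadjusted p below 0.05, against 4.65% higher and 8.59% lower of all probe sets, with a median of -0.26, and none passed. Tuba1b, a tubulin, and Ccng1, a cyclin of the p53 response, the brightest members, were not among the 9. H2az1, a histone variant and the brightest of 8 tested chromatin genes, had 3868, 1199, 1625, 2021, and 1592 in adult rats, against 3800.5, 1720.0, 3118, 4296, and 3174 in young rats (log2 -0.70 ± 0.18, adjusted p = 0.180). Its signals were alike at 3 days and lower in adult rats at the 4 later times. Of the 8 chromatin genes, 0 were higher and 3 lower at an unadjusted p below 0.05, against 4.65% and 8.59% of all probe sets. Their median was -0.39, and none passed.

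Without the 3 days arrays, 11 probe sets were higher (0.236%) and 14 lower (0.3%) in adult rats by the adjusted test. The genes named here were picked from these calls after the values were seen. Pnn, pinin, a protein of splicing complexes, had 141.8, 181, 321, and 214.5 from 1 to 6 weeks in adult rats, against 373, 597.5, 797, and 582 in young rats (log2 -1.47, adjusted p = 0.00617). Its order was the opposite at 3 days, with 669 in adult rats and 418 in young rats. Srsf5 and Srsf11, splicing factors rich in serine and arginine, had -1.14 each and Zranb2, a splicing regulator, -1.11 (adjusted p = 0.0371 each). Among those higher were Camk2b, a calcium-dependent kinase (1.28, adjusted p = 0.0243), Cited2, a transcription co-regulator (1.07, adjusted p = 0.0457), Pmepa1 (0.91, adjusted p = 0.0371), Apoe, the lipid carrier (0.83, adjusted p = 0.0418), and Timp2, an inhibitor of matrix proteases (0.74, adjusted p = 0.0418). At 3 days the adult minus young differences of Camk2b, Apoe, and Timp2 were -0.63, -0.59, and -0.16, on the other side. The small proteoglycan Dcn was among them as well (0.70, adjusted p = 0.0457), but 2 of its 3 other probe sets had differences of -0.81 and -0.33 over all 5 times.

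No muscle gene passed the test. Of 48 skeletal muscle genes, 1 was higher and 1 lower at an unadjusted p below 0.05, against 4.65% and 8.59% of all probe sets, and the median was 0.00. That median joins times of opposite sign. By time it was -0.48 at 3 days, -0.41 at 1 week, 0.51 at 2 weeks, -0.05 at 4 weeks, and 0.32 at 6 weeks. Without fracture it was 0.46. In adult rats 46 of the 48 genes were lower at 3 days and 47 were higher at 2 weeks, each 1 array against 1. Their summed signal was 99088 to 463098 in adult rats and 140056 to 399415 in young rats. Of 13 genes of developing muscle, none passed and none had an unadjusted p below 0.05 over the 5 times, while 3 were higher at that threshold over 3 days to 2 weeks. At those early times 87 of all 4669 probe sets were higher and 214 lower at the same threshold. Their median was -0.73 at 3 days, 0.64 at 1 week, and 1.15 at 2 weeks. Myh3, the embryonic myosin that marks regenerating fibers, had 3353, 18600.1, 16584, 6762, and 5524 in adult rats, against 7056, 11960.2, 6204, 5022, and 4801 in young rats. On this probe set the adult signal was lower at 3 days and higher from 1 week on, and the mean difference was 0.32 ± 0.28. Dimmer probe sets of Myh3 had mean differences of 0.24, -0.22, and 0.15. At 4 weeks these were on the other side, with -0.06, -0.11, and -0.47.

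Apart from the nerve-related lists, the lists not described above had medians between -0.17 and 0.23 over the 5 times, and none of their members passed. The counts that follow are to be read against 4.65% higher and 8.59% lower of all probe sets at the same threshold. Of 36 ribosomal protein genes, 5 were higher and 1 lower in adult rats at an unadjusted p below 0.05, and of 26 proteasome and ubiquitin genes, 4 were higher and 1 lower. Endothelial and vascular genes had 3 of 14 higher and 1 lower, and interferon response genes had 0 of 13 higher and 3 lower. In the macrophage list 1 of 9 was higher and 0 lower, in the MHC class II and the T lymphocyte and NK cell lists 0 in either direction, and in the B lymphocyte list 1 of 6 was lower. Among the lists of blood cells, the neutrophil, red cell, and mast cell lists had the most negative medians, and the macrophage list had a median of 0.00.

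**Figure D5:**
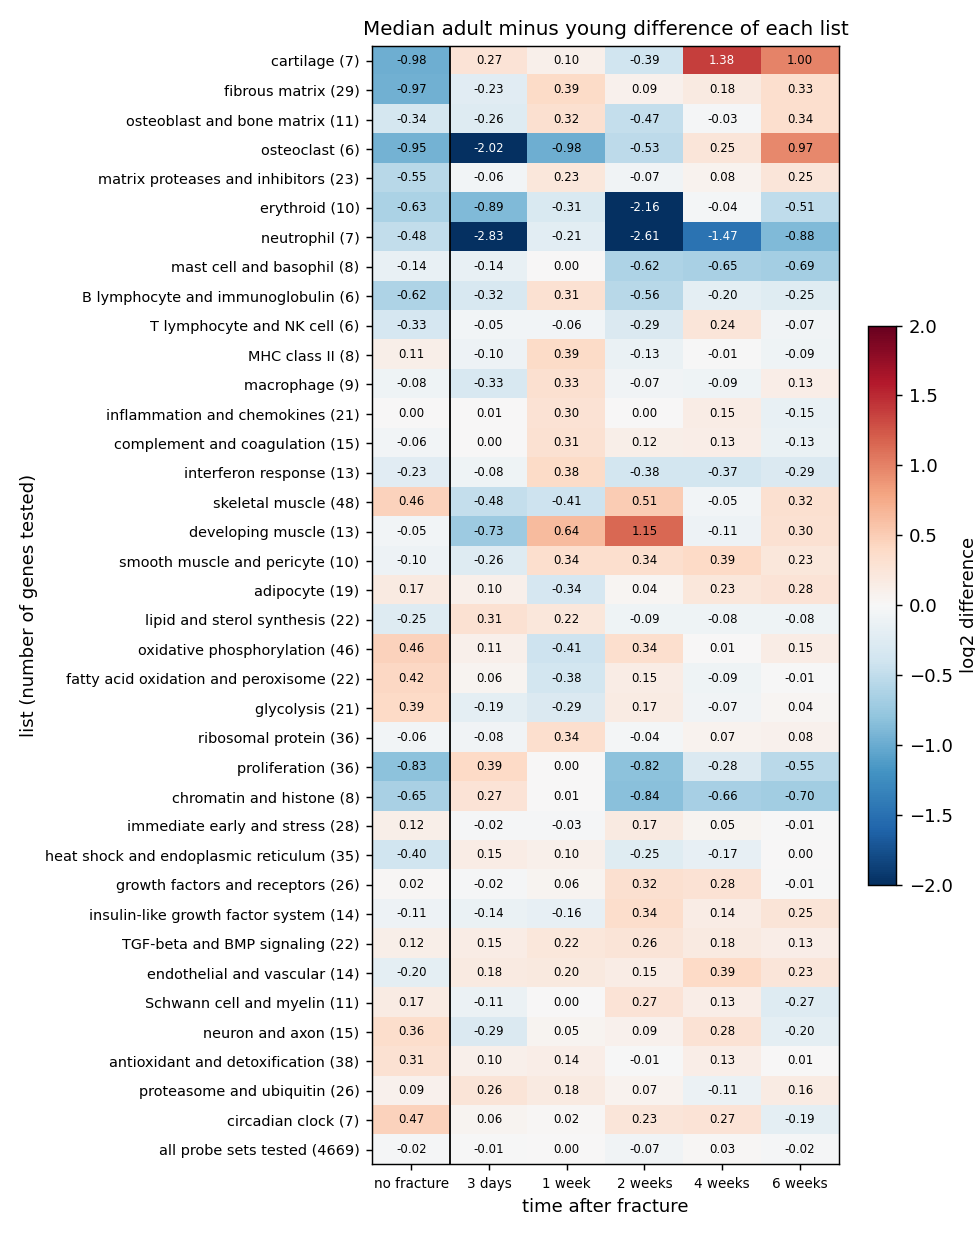
Median adult minus young log2 difference over the tested genes of each list (rows, with the number of genes) with no fracture and at each time after fracture (columns), coloured from blue (lower in adult) to red (higher in adult), with the scale ending at 2. The darkest cells are those of the neutrophil list at 3 days (-2.83) and 2 weeks (-2.61), the erythroid list at 2 weeks (-2.16), and the osteoclast list at 3 days (-2.02).

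The nerve-related lists of the study were chosen by its authors on arrays that include these, so their direction is not independent evidence. Among 6 tested genes listed as slow to recover in older rats, 1 was higher and 3 lower in adult than in young rats at an unadjusted p below 0.05, against 4.65% and 8.59% of all probe sets, with a median of -0.49. Nrgn, neurogranin, had 47.5 and 249 at 4 and 6 weeks in adult rats, against 465 and 531 in young rats (log2 -1.65 ± 0.37, adjusted p = 0.122). Among 6 tested genes listed as more up-regulated in older rats, 3 were higher and 0 lower, with a median of 0.58. Thbs4, a matrix thrombospondin, had 1942, 2487, 2805, 1576, and 1434 in adult rats, against 1837, 1418, 1046, 1181, and 1188 in young rats (log2 0.60 ± 0.22, adjusted p = 0.275). Chrna1, the muscle acetylcholine receptor subunit, had 2727 in adult rats and 712 in young rats at 1 week but a mean difference of 0.56 ± 0.30. Of the 3 tested genes listed as more up-regulated in young rats, Ptprz1, a receptor phosphatase, had -0.57 ± 0.26, Cdk17 -0.32, and Nr4a3 -0.17. None of the 15 genes of these lists passed in the fit with the older rats. Genes listed as up-regulated at all ages had a median of -0.05 (22 tested, 1 higher and 3 lower), and those listed as down-regulated at all ages -0.07 (11 tested, 0 in either direction).

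The last comparison asked whether the age difference after fracture departed from that without fracture. It called 0 of 4669 probe sets in either direction (0.0% each), with 229 higher and 73 lower at an unadjusted p below 0.05 and a lowest adjusted p of 0.190. That test rests on a single pair of arrays without fracture, and in simulated data it recovered 28% of changes of log2 2. Without fracture the adult array had lower values for the fibrous matrix list (median -0.97), the osteoclast list (-0.95), and the cartilage list (-0.98). After fracture the same lists had medians of 0.22, -0.52, and 0.63.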

How the data were processed

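RNA of 18 pools of 2 rats was hybridized to 1 Affymetrix rat GeneChip each, and the authors computed the deposited signal intensities with MAS 5.0, scaled to an average of 500 per array. The 2% trimmed means of the deposited intensities were 500.6 to 500.9 and the array medians 137.2 to 182.6. The number of arrays and the signal over background may limit the precision, which was not tested. Affymetrix control probe sets (59 of 8799) were left out. Signals were set to a floor of 100 and log2 transformed, and probe sets that reached 200 on 3 or more of the 18 arrays were kept. Of all probe sets 7018 had 1 gene symbol, 308 several, and 1473 none, by the platform annotation with symbols updated through the gene ID for 6994.

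limma 3.58.1 (R 4.3.3) fitted age and time over the 15 fracture arrays (8 residual degrees of freedom), age in each of 2 periods (3 days to 2 weeks, and 4 and 6 weeks) with their difference, and the departure from no fracture over 18 arrays, with moderated two-sided tests (eBayes, trend) and Benjamini-Hochberg adjustment over all probe sets at 0.05. All p-values given are from limma, and measure only the spread between these arrays. Errors beside differences are standard errors. For each gene the probe set of highest mean signal was used. Named genes were 12 in each direction whose mean reached 500 in the higher age and whose sign was the same at all 5 times, taken by lowest p where none passed, up to 5 called in each direction in the other comparisons, and for each gene list its called members or its 2 brightest. The 37 gene lists, the 5 nerve-related lists of the study, the comparisons, and the members were chosen with earlier results of these data known. Before use the fits were tested on simulated data with 100 genes changed per size, and no recovered change had the wrong sign. The alternatives were other floors, filters, scalings, moderation settings, 1 probe set per gene, no older arrays, and each array or time left out. Further arrays of the study were not used here.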

Additional observations from a re-analysis of the deposited data

Results flagged for a closer look

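Of 75 groups of 5 values checked for a single value far from the others, 4 had one, and chance gives about 1 in 20. The 5' to 3' ratio of Gapdh was 0.2566 on the young 6 weeks array, the lowest of the 5 young arrays after fracture. The adult minus young difference of Lypd8l1 at 1 week was -0.483 on the log2 scale, closer to 0 than at the other 4 times. The median difference of the MHC class II list at 1 week was 0.387, the highest of the 5 times. The median difference of the smooth muscle and pericyte list at 3 days was -0.256, the lowest of the 5 times and the only negative one.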

How the results depend on the processing

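Each age had 1 array per time, so no call rests on replicates within a time, and genes below the floor of 100 have differences that understate the change. Over the 5 times 0 probe sets were higher and 0 lower. Fitting only the young and adult arrays gave 1 higher and 3 lower, leaving out the 6 weeks arrays gave 1 higher, and leaving out the 3 days arrays gave 11 higher and 14 lower. Leaving out 1 array gave 0 to 5 higher and 0 to 18 lower, with the highest counts without the adult 3 days array. At 3 days, 1 week, and 2 weeks 0 were higher and 1 lower. The lower count was 0 without the filter, 2 with quantile normalization, 4 with only the young and adult arrays, and 0 without the 6 weeks arrays, and leaving out 1 array gave 0 to 2 higher and 0 to 7 lower. At 4 and 6 weeks 2 were higher and 1 lower. The higher count was 1 with a floor of 20, 4 with a floor of 200, 6 without the filter, 1 with a filter at 500, 5 with robust moderation, 5 without a trend, 1 with only the young and adult arrays, and 0 without the 6 weeks arrays. The lower count was 14 with a floor of 200, 13 without the filter, 2 with equal array medians, 5 without a trend, and 0 with 1 probe set per gene, with only the young and adult arrays, or without the 6 weeks arrays. Leaving out 1 array gave 0 to 8 higher and 0 to 3 lower. For the late minus early difference, 1 was higher without the filter or with only the young and adult arrays, and 1 was lower with a floor of 200 and 4 without the filter, while leaving out 1 array gave 0 to 2 higher and 0 lower. For the departure from no fracture, 24 were higher and 39 lower without the filter, 1 higher and 2 lower without the 6 weeks arrays, and leaving out 1 array gave 0 to 2 higher and 0 to 1 lower. The cause of these shifts was not tested. Ages were paired by time, and the fit of only the young and adult arrays with time as a term is the fully paired fit.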
